A study of Mus musculus with 2 samples.

Results

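Apoe, Trem2, Gpnmb, Cd36, Lpl, Fabp4, Fabp5, Abcg1, Pla2g7 and Cd9 are 10 genes of lipid handling in macrophages, and their levels were followed through every cell class of 2 MC38 tumours. They were picked by symbol, with earlier readings of these same libraries known, and each of the 10 symbols matched 1 of the 56941 genes in the tables. The direction of Apoe and of the fatty acid genes between the libraries was part of that choice, so their ratios below are a description and carry no test. One tumour grew from MC38 cells transduced with a lentivirus for SPP1, which codes for osteopontin, and the other from MC38 cells transduced with a vector. MC38 is a mouse colon adenocarcinoma line, and both transduced pools were injected under the skin of C57BL/6 mice. The genotype is labelled WT for both. Both mice also received anti-PD-1 into the peritoneum at 10 mg/kg, 2 times a week for 2 weeks from day 7, so neither group shows the tumour without that antibody. Tumour tissue of 1 mouse per group gave 1 library, and each pool is a mixture of transduced cells rather than a clone.

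Macrophages that take up dead cells and lipoproteins must store, use or export the lipid they gain. Lipoprotein lipase frees fatty acids, CD36 brings them in, fatty acid binding proteins carry them, and ABCG1 hands cholesterol to lipoprotein particles, of which apolipoprotein E is one of the carriers. TREM2 is a lipid-sensing receptor of macrophages, and a state rich in Trem2, Gpnmb, Cd9 and Fabp5 is often described in fat, in atheroma and in tumours.

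The libraries held 164599332 UMIs (unique molecular identifiers, counted molecules) in 14029 barcodes for SPP1 and 164247003 UMIs in 14317 barcodes for vector. Filtering and the doublet call left 13245 cells under the SPP1 label and 13691 under the vector label. Spp1, the gene named in the label, did not follow that label. In the large unnamed compartment, which held most cells, it stood at 127 CPM (counts per 1000000 UMIs of the class) in the library labelled SPP1 and 135 CPM in the library labelled vector, a log2 ratio of -0.08 (95% counting interval -0.11 to -0.05). Whether transcripts of the introduced SPP1 are counted under this mouse gene is not given in the sources used here, so the counts do not check the label, and every direction below is between libraries as labelled. That compartment carried Hmga2 at 853 CPM under the SPP1 label and 851 CPM under the vector label and Prrx1 at 328 CPM under the SPP1 label and 366 CPM under the vector label. Sox9, expressed in intestinal crypts and in several mesenchymal lineages, was at 868 CPM under the SPP1 label and 832 CPM under the vector label. Of the epithelial and intestinal genes looked at, Cdh1 was at 1.46 CPM under the SPP1 label and 1.69 CPM under the vector label, Vil1 at 0.247 CPM under the SPP1 label and 0.301 CPM under the vector label, and Krt8 at 0.212 CPM under the SPP1 label and 0.154 CPM under the vector label. Krt18 had 9 UMIs under the SPP1 label and 2 UMIs under the vector label, Epcam 0 UMIs under the SPP1 label and 2 UMIs under the vector label, Krt20 0 UMIs under the SPP1 label and 1 UMI under the vector label, and Cdx2 had 0 in both. The libraries shared 93 cell barcodes, and leaving those cells out left the macrophage ratios close to the values below (Apoe 0.73, Cd36 -0.70). With 1 library per group there was no replicate, no test across samples was possible, and all intervals cover counting error only.

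Cells were sorted into classes by marker lists. The macrophage/monocyte-like class held 593 cells (4.48% of cells, median 7989 UMIs) in the library labelled SPP1 and 770 cells (5.62%, median 8323 UMIs) in the library labelled vector. Its 12 markers, among them Adgre1, Csf1r and the C1q genes, were all detected in both libraries, and they summed to 18167 CPM under the SPP1 label and 14819 CPM under the vector label. The T and NK-like class, with 114 cells under the SPP1 label (median 3781 UMIs) and 178 under the vector label (median 3541.5 UMIs), served as the class that should lack macrophage RNA.

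The 250 bases upstream of the annotated start are printed for Apoe and Trem2, which were higher in macrophages of the library labelled SPP1, and for Cd36 and Pla2g7, which were lower there. They come from RefSeq on build GRCm38.p6, one step older than the GRCm39 build named for the counts, and run 5′ to 3′ on the gene's strand: chr7:19699189-19699438 (minus strand) for Apoe, chr17:48346151-48346400 (plus) for Trem2, chr5:17835897-17836146 (minus) for Cd36 and chr17:43568201-43568450 (plus) for Pla2g7. Capitals mark matches to the motifs searched.
Apoe: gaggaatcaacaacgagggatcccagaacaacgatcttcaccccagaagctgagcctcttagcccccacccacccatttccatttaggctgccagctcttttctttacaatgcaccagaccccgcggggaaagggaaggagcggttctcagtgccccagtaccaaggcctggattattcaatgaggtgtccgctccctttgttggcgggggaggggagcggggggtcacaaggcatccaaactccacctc
Trem2: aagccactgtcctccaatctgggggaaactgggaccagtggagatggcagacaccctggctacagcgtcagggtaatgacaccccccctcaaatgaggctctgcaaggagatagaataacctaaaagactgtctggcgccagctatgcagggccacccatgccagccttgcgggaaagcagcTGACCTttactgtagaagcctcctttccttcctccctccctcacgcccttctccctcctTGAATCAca
Cd36: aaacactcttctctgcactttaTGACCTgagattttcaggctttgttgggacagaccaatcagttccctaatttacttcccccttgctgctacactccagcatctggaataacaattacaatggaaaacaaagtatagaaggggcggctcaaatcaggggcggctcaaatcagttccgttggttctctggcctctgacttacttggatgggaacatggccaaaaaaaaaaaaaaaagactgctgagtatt
Pla2g7: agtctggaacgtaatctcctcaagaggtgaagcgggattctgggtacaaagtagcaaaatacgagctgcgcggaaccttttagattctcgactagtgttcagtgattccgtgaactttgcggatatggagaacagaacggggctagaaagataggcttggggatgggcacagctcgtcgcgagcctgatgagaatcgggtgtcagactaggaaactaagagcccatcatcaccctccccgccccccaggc
The letters searched on both strands were AGGTCA (a nuclear receptor core site), the direct repeats of that core known as DR1 and DR4 (the forms of PPAR and of LXR with their partner RXR), CACGTG (an E-box of the MITF and TFE family), TGANTCA (AP-1) and GAGGAAGT (PU.1). Both repeats contain the core site. The RefSeq table held 8 promoters, windows from 250 bases before to 50 bases after a start, for 6 of the 10 genes: Apoe with 3 starts, and Trem2, Gpnmb, Cd36, Pla2g7 and Cd9. AGGTCA matched at -228 in Cd36 and at -68 in Trem2, on the opposite strand in each, against 16.3% of all 32851 promoters in the table. TGANTCA matched at -9 in Trem2, and also 8 bases past the start in Gpnmb, against 7.81% of promoters. No motif of the 6 lay in the windows of Apoe, Pla2g7 or Cd9. CACGTG is in 7.15%, GAGGAAGT in 3.20%, DR1 in 0.0396% and DR4 in 0.0152% of promoters, and none of these was found in a window of the 10 genes.

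Across cell classes the 10 genes were of 2 kinds. Apoe, Trem2, Abcg1, Cd36 and Lpl had most of their UMIs in the macrophage/monocyte-like class, whereas Gpnmb, Pla2g7, Cd9, Fabp5 and Fabp4 had most of theirs elsewhere. Apoe, the apolipoprotein, had 80.7% of its UMIs in that class in the library labelled SPP1 and 81.2% in the library labelled vector. Trem2 had 83.0% under the SPP1 label and 83.5% under the vector label there, and Abcg1, the cholesterol exporter, 81.4% under the SPP1 label and 82.5% under the vector label. With 4.48% under the SPP1 label and 5.62% under the vector label of the cells in that class, these genes were concentrated there in both libraries.

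Apoe reached 3354 CPM under the SPP1 label (Poisson interval 3304 to 3405) and 2014 CPM under the vector label (1980 to 2049) in macrophage/monocyte-like cells. Outside them it was at 7.98 CPM under the SPP1 label and 6.28 CPM under the vector label in the compartment, seen as 2 UMIs under the SPP1 label and 0 UMIs under the vector label in dendritic cell-like cells, and at 12.5 CPM under the SPP1 label and 15.6 CPM under the vector label in endothelial-like cells. When each cell was thinned to 1000 UMIs, 76.7% under the SPP1 label and 64.5% under the vector label of macrophage/monocyte-like cells had an Apoe UMI, against 0 of 113 T and NK-like cells under the SPP1 label (exact upper bound 3.21%) and 0.565% of 177 under the vector label. Trem2 had 183 CPM under the SPP1 label and 150.2 CPM under the vector label in macrophage/monocyte-like cells and 0 UMIs in endothelial-like and fibroblast-like cells of both libraries. Its thinned share was 15.4% under the SPP1 label and 14.6% under the vector label, against the same shares of T and NK-like cells as Apoe.

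Cd36, the fatty acid and scavenger receptor, was high in endothelial-like cells as well. It stood at 80.1 CPM under the SPP1 label and 131 CPM under the vector label in macrophage/monocyte-like cells and at 249 CPM under the SPP1 label and 732 CPM under the vector label in endothelial-like cells, which were 21 cells under the SPP1 label and 18 under the vector label. Dendritic cell-like cells had 45.6 CPM under the SPP1 label and 118 CPM under the vector label from 9 UMIs under the SPP1 label and 33 UMIs under the vector label, and fibroblast-like cells had none. In these 3 classes the library labelled SPP1 was lower, with log2 ratios of -0.71 (-0.88 to -0.53), -1.55 (-2.12 to -1.005) and -1.37 (-2.62 to -0.28) in that order.

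Lpl, the lipase, had 96.8 CPM under the SPP1 label and 147.9 CPM under the vector label in macrophage/monocyte-like cells and 115.8 CPM under the SPP1 label and 499.7 CPM under the vector label in fibroblast-like cells, of which there were 44 under the SPP1 label and 40 under the vector label. Both classes were lower in the library labelled SPP1, by a log2 ratio of -0.61 in macrophage/monocyte-like cells and -2.11 (-2.58 to -1.66) in fibroblast-like cells. Lpl had 0 UMIs in endothelial-like cells of both libraries. Macrophage/monocyte-like cells held 79.4% under the SPP1 label and 72.7% under the vector label of all Lpl UMIs.

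The binding proteins differed from each other. Fabp4, the adipocyte and endothelial form, was at 6442 CPM under the SPP1 label and 5892 CPM under the vector label in endothelial-like cells, which gave 69.0% under the SPP1 label and 47.1% under the vector label of all its UMIs. In macrophage/monocyte-like cells it was at 24.6 CPM under the SPP1 label and 21.6 CPM under the vector label and seen in 6.07% under the SPP1 label and 7.53% under the vector label of cells. The 3 cells with most Fabp4 held 47.6% under the SPP1 label and 26.8% under the vector label of the UMIs of that class. Adipocyte markers were nearly absent from the class, with 3 UMIs under the SPP1 label and 2 UMIs under the vector label summed over Adipoq, Plin1, Cidec and Lep (Lep at 0 in both), and the 6 endothelial markers summed to 31.9 CPM under the SPP1 label and 28.3 CPM under the vector label with Cldn5 at 0. Fabp5, the form common in macrophages and epithelium, was more widespread: 239 CPM under the SPP1 label and 369 CPM under the vector label in macrophage/monocyte-like cells, 380 CPM under the SPP1 label and 156 CPM under the vector label in endothelial-like cells, and 27.7 CPM under the SPP1 label and 30.4 CPM under the vector label in the compartment. The compartment held 70.1% under the SPP1 label and 58.8% under the vector label of Fabp5 UMIs.

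Gpnmb, a lysosome-linked membrane glycoprotein, Pla2g7, which codes for the lipoprotein-bound phospholipase that degrades platelet-activating factor, and the tetraspanin gene Cd9 were not restricted to macrophages. The compartment held 88.7% under the SPP1 label and 89.0% under the vector label of Gpnmb UMIs, 91.3% under the SPP1 label and 87.8% under the vector label of Pla2g7 UMIs and 92.98% under the SPP1 label and 92.94% under the vector label of Cd9 UMIs. As CPM, Gpnmb was still higher in macrophage/monocyte-like cells (55.9 CPM under the SPP1 label and 44.0 CPM under the vector label) than in the compartment (26.2 CPM under the SPP1 label and 29.8 CPM under the vector label), and so was Pla2g7 (77.5 CPM under the SPP1 label and 131 CPM under the vector label against 57.6 CPM under the SPP1 label and 70.6 CPM under the vector label). Cd9 alone of the 10 was higher in the compartment, at 673 CPM under the SPP1 label and 720 CPM under the vector label against 378 CPM under the SPP1 label and 428 CPM under the vector label. T and NK-like cells also held Cd9, at 147 CPM under the SPP1 label and 117 CPM under the vector label.

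**Figure D1:**
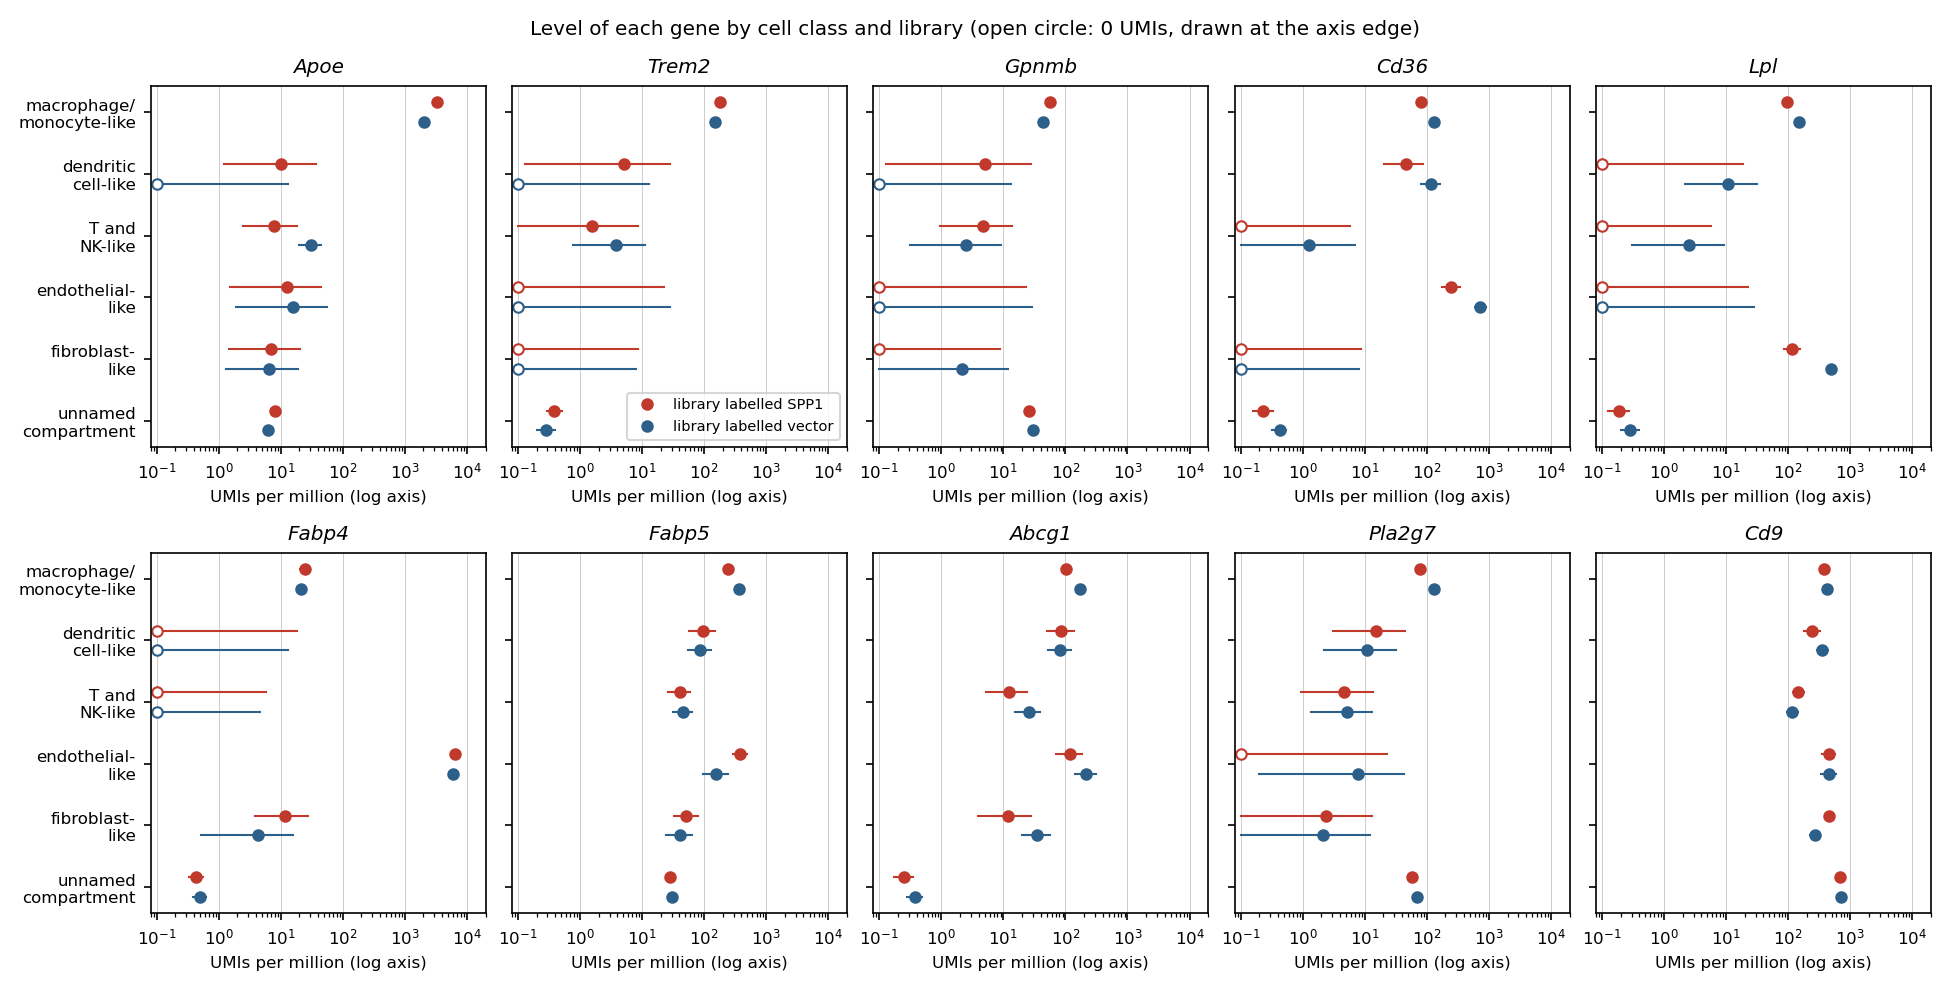
Level of each of the 10 genes in 6 cell classes, in CPM on a log axis, with 95% Poisson intervals; red points are the library labelled SPP1, blue points the library labelled vector, and open circles stand for 0 UMIs. Apoe and Trem2 stand out in macrophage/monocyte-like cells, Fabp4 in endothelial-like cells at 6442 CPM under the SPP1 label and 5892 CPM under the vector label, and Cd9 is spread over all classes.

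In macrophage/monocyte-like cells the genes split by direction between the libraries. Of the 10 genes, 1 was at least 1.5-fold higher in the library labelled SPP1 (Apoe) and 5 were at least 1.5-fold lower (Abcg1, Pla2g7, Cd36, Fabp5 and Lpl). Among all 8342 genes with at least 100 UMIs in the class, 2.81% were higher by that much and 1.95% were lower, 4.76% in all. The members were chosen with such ratios known, so nothing is read from the count. The median log2 ratio was -0.40 over the 10 genes and -0.02 over all 8342. As a measure of how far the libraries differ in general, the median size of the log2 ratio was 0.13 over the 2224 genes with at least 1000 UMIs.

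Apoe was the gene with the higher level in the library labelled SPP1, at 3354 CPM against 2014 CPM in the library labelled vector, a log2 ratio of 0.74 (0.70 to 0.77). In UMIs per 10000, the median cell held 27.4 of Apoe under the SPP1 label and 15.04 under the vector label, and the upper quartile 51.7 under the SPP1 label and 30.4 under the vector label, so the difference was present at the median and at the upper quartile. The lipid receptor gene Trem2 and Gpnmb lay in the same direction with smaller differences. Trem2 had 183 CPM under the SPP1 label and 150.2 CPM under the vector label, a log2 ratio of 0.28 (0.15 to 0.41), and Gpnmb had 55.9 CPM under the SPP1 label and 44.0 CPM under the vector label, a log2 ratio of 0.35 (0.10 to 0.59). Neither passed 1.5-fold.

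The genes of fatty acid entry and transport lay the other way. Cd36 had 80.1 CPM under the SPP1 label and 131 CPM under the vector label and Lpl 96.8 CPM under the SPP1 label and 147.9 CPM under the vector label, with the log2 ratios given above. Fabp5 had 239 CPM under the SPP1 label and 369 CPM under the vector label, a log2 ratio of -0.62 (-0.73 to -0.52). Fabp4 was the exception: its log2 ratio of 0.19 had an interval of -0.17 to 0.54, and without the 3 highest cells of each library it was -0.30.

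Abcg1 and Pla2g7 also lay lower in the library labelled SPP1. Abcg1 had 101.5 CPM under the SPP1 label and 172 CPM under the vector label, a log2 ratio of -0.76 (-0.92 to -0.61), and an Abcg1 UMI was found in 38.5% under the SPP1 label and 53.4% under the vector label of cells. Abcg1 and Apoe are both textbook targets of the sterol-sensing LXR receptors, and here they had opposite directions in the same class. A part of LXR in either ratio was not tested. Pla2g7 had 77.5 CPM under the SPP1 label and 131 CPM under the vector label, a log2 ratio of -0.75 (-0.93 to -0.58). Cd9 differed least among the genes with an interval clear of 0, at 378 CPM under the SPP1 label and 428 CPM under the vector label, a log2 ratio of -0.18 (-0.26 to -0.09).

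**Figure D2:**
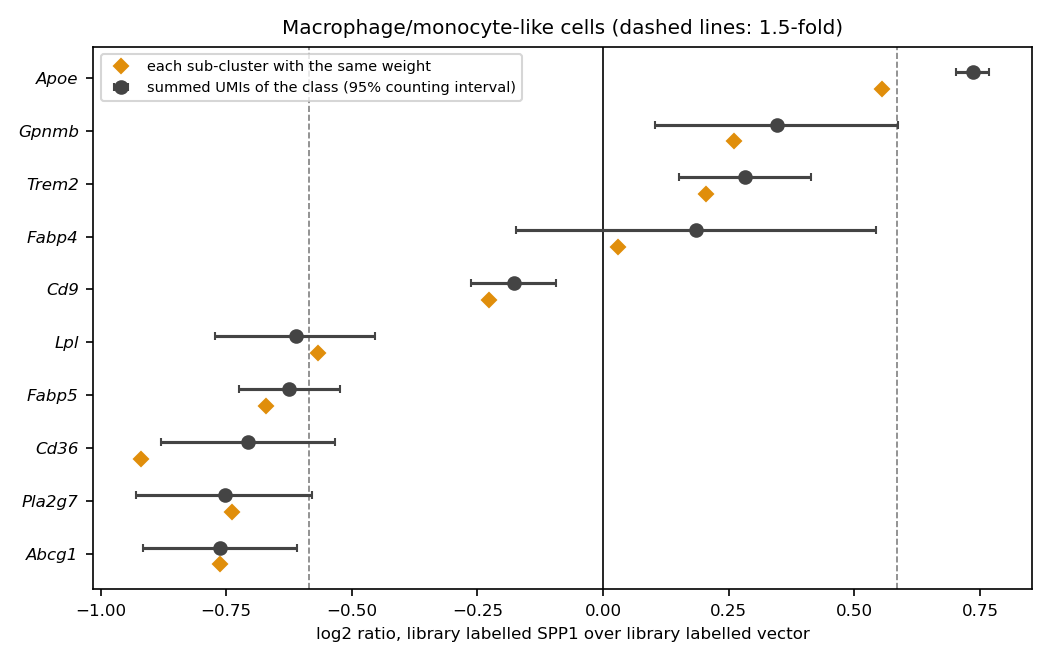
Log2 ratio of each gene in macrophage/monocyte-like cells, library labelled SPP1 over library labelled vector, as summed UMIs with 95% counting intervals (grey) and with all 9 sub-clusters given the same weight (orange); dashed lines mark 1.5-fold. Apoe is highest at 0.74, or 0.56 with equal weights, and Lpl, Fabp5, Cd36, Pla2g7 and Abcg1 form a lower group from -0.61 to -0.76.

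Other measures of the class moved with the libraries too. The summed macrophage markers differed between the libraries as given above, with C1qa at 1620 CPM under the SPP1 label and 1123 CPM under the vector label, a log2 ratio of 0.53, and Cd14 at 826 CPM under the SPP1 label and 1002 CPM under the vector label, a log2 ratio of -0.28. The 6 fibroblast markers in the class summed to 158 CPM under the SPP1 label and 83.6 CPM under the vector label. Of these, Col14a1 gave 115.8 CPM under the SPP1 label and 46.0 CPM under the vector label. Dcn gave 38.9 CPM under the SPP1 label and 34.1 CPM under the vector label, while Lum and Dpt had 6 UMIs or fewer in each library. Markers of the compartment summed to 118 CPM under the SPP1 label and 90.3 CPM under the vector label with no gene at 0, and the 5 osteoclast markers to 110.2 CPM under the SPP1 label and 146.5 CPM under the vector label with Calcr at 0. The part of these differences in the ratios of the 10 genes was not tested.

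The macrophage/monocyte-like cells were clustered again, without the 10 genes and without the 400 genes that differed 1.5-fold between the libraries. Of the sub-clusters found, 9 were kept. Another, of 25 cells under the SPP1 label and 17 under the vector label, was left out of the class as mixed. Its compartment markers stood at 0.35 of the compartment's level. M1 was led by cell cycle genes such as Top2a and Rrm2. M2 was led by Hspa1b, Rsad2 and Ifit2, followed by Hspb1, Hspa1a, Atp6v0d2 and Mmp13. M3 was led by the monocyte gene Ly6c2, M4 by Areg, Il1a and Il6, and M5 by Ccl8 and Ch25h. M6 was led by Arl5c and Gab1, M7 by Maf, Vcam1 and Selenop, M8 by Cpb2, and M9 by Cxcl9 and Gbp2. M3 held 9.95% of the class in the library labelled SPP1 and 18.8% in the library labelled vector, and M7 held 14% under the SPP1 label and 5.45% under the vector label. The remaining shares lay closer together, for example 15.7% under the SPP1 label and 15.8% under the vector label for M2.

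Each gene had its own distribution over these cells. Apoe was highest in M7, at 6161 CPM under the SPP1 label and 4131 CPM under the vector label, and lowest in M3, at 1091 CPM under the SPP1 label and 743 CPM under the vector label. Trem2 shared the low point, at 107 CPM under the SPP1 label and 90.1 CPM under the vector label in M3, but was highest in M5, at 275 CPM under the SPP1 label and 278 CPM under the vector label. Gpnmb was concentrated in M2, at 189 CPM under the SPP1 label and 165 CPM under the vector label, and nearly missing from M7, with 4 UMIs under the SPP1 label and 0 under the vector label. Fabp4 was also highest in M2, at 113 CPM under the SPP1 label and 69.0 CPM under the vector label, and 3 cells held 69.4% under the SPP1 label and 44.8% under the vector label of those UMIs.

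M2 was the high point of several genes of fatty acid and cholesterol transport in both libraries. Fabp5 stood at 546 CPM under the SPP1 label and 817 CPM under the vector label there and at only 74.7 CPM under the SPP1 label and 87.4 CPM under the vector label in M3. Cd36 stood at 164 CPM under the SPP1 label and 253 CPM under the vector label and Abcg1 at 187 CPM under the SPP1 label and 282 CPM under the vector label. Lpl did not join them: it was highest in M4 of the library labelled SPP1, at 190.0 CPM, and in M5 of the library labelled vector, at 249 CPM, and lowest in M7, at 19.0 CPM under the SPP1 label and 40.2 CPM under the vector label. Pla2g7 was highest in M4, at 112 CPM under the SPP1 label and 171 CPM under the vector label, and had the most even levels after Cd9, with 2.27-fold between its highest and lowest sub-cluster against 2.098-fold for Cd9 and 41.9-fold for Gpnmb, both libraries summed.

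**Figure D3:**
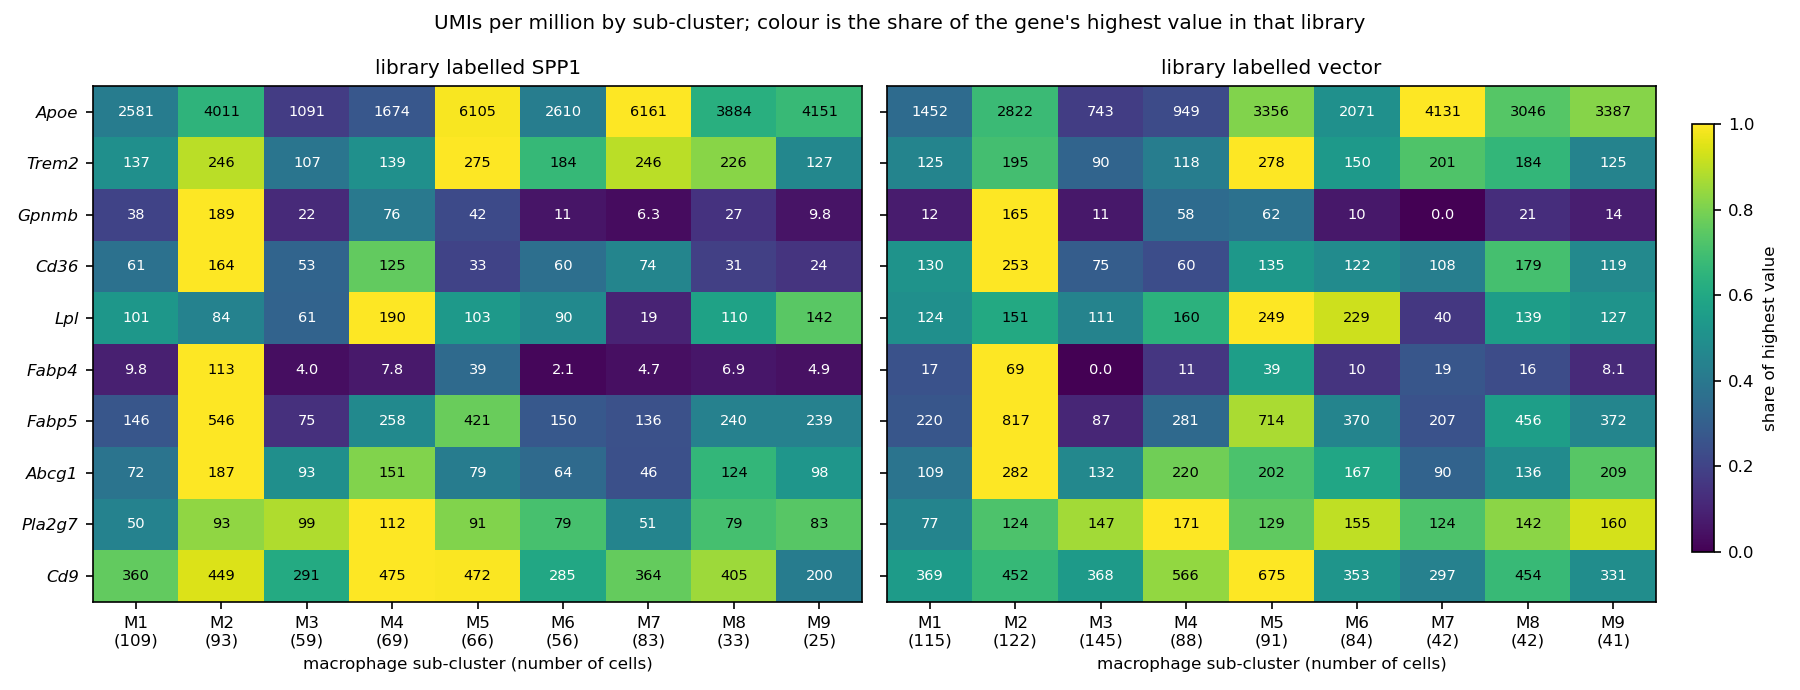
Level of each gene in CPM in macrophage sub-clusters M1 to M9 of the library labelled SPP1 (left) and the library labelled vector (right), with cell numbers under each column; colour gives the share of the gene's highest value in that library. Gpnmb, Cd36, Fabp4, Fabp5 and Abcg1 are brightest in M2 of both libraries, and Apoe is brightest in M7.

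The direction of Apoe was the same in every sub-cluster. It was higher in the library labelled SPP1 in 9 of 9, with log2 ratios of 0.29 in M9 to 0.86 in M5, and all 9 counting intervals lay above 0. The sub-clusters are parts of the same libraries and not replicates, and the direction of Apoe was known when the genes were chosen. In M3, where Apoe is low, it was 1091 CPM under the SPP1 label and 743 CPM under the vector label, and in M7, where it is high, 6161 CPM under the SPP1 label and 4131 CPM under the vector label. Given equal weights, the sub-clusters gave a log2 ratio of 0.56, below 1.5-fold, against 0.74 for summed UMIs. Leaving out M3 and M7, the sub-clusters whose shares differed most, gave 0.56 as well.

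Fabp5, Abcg1 and Pla2g7 were lower in 9 of 9 sub-clusters, with intervals below 0 in 7, 8 and 7 of them. Fabp5 differed most in M6, at 150 CPM under the SPP1 label and 370 CPM under the vector label, a log2 ratio of -1.30 (-1.71 to -0.91), and least in M4, at 259 CPM under the SPP1 label and 281 CPM under the vector label. Abcg1 differed most in M6 as well, at 64.3 CPM under the SPP1 label and 167 CPM under the vector label, and least in M8, at 124 CPM under the SPP1 label and 136 CPM under the vector label. Pla2g7 had its largest difference in M7, at 50.6 CPM under the SPP1 label and 124 CPM under the vector label, a log2 ratio of -1.29 (-2.01 to -0.58).

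Cd36 did not behave alike in all sub-clusters. It was lower in 8 of 9, down to 30.9 CPM under the SPP1 label and 179 CPM under the vector label in M8, a log2 ratio of -2.53 (-3.72 to -1.52). In M4, however, it was higher, at 125 CPM under the SPP1 label and 60.2 CPM under the vector label from 80 UMIs under the SPP1 label and 50 under the vector label, a log2 ratio of 1.05 (0.52 to 1.59), and the 3 cells with most Cd36 held 43.8% under the SPP1 label and 32.0% under the vector label of those UMIs. In M8 of the library labelled vector 3 cells held 76.1% of the Cd36 UMIs. Lpl was lower in 7 of 9, with intervals below 0 in 4. The exceptions were again M4, at 190.0 CPM under the SPP1 label and 160 CPM under the vector label, and M9, at 142 CPM under the SPP1 label and 127 CPM under the vector label, both with intervals that include 0.

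Trem2 was higher in 8 of 9 sub-clusters, but only the interval of M2 lay above 0 (0.34, 0.04 to 0.64), and in M5 it was 275 CPM under the SPP1 label and 278 CPM under the vector label. Gpnmb was higher in 6 and lower in 2 of the 8 sub-clusters with UMIs in both libraries. Its clearest difference was in the cycling M1, at 38.2 CPM under the SPP1 label and 12.4 CPM under the vector label, a log2 ratio of 1.63 (0.80 to 2.52), where 3 cells held 83.0% of the 47 UMIs of the library labelled SPP1. Cd9 was lower in 8 of 9, with intervals below 0 in 4.

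**Figure D4:**
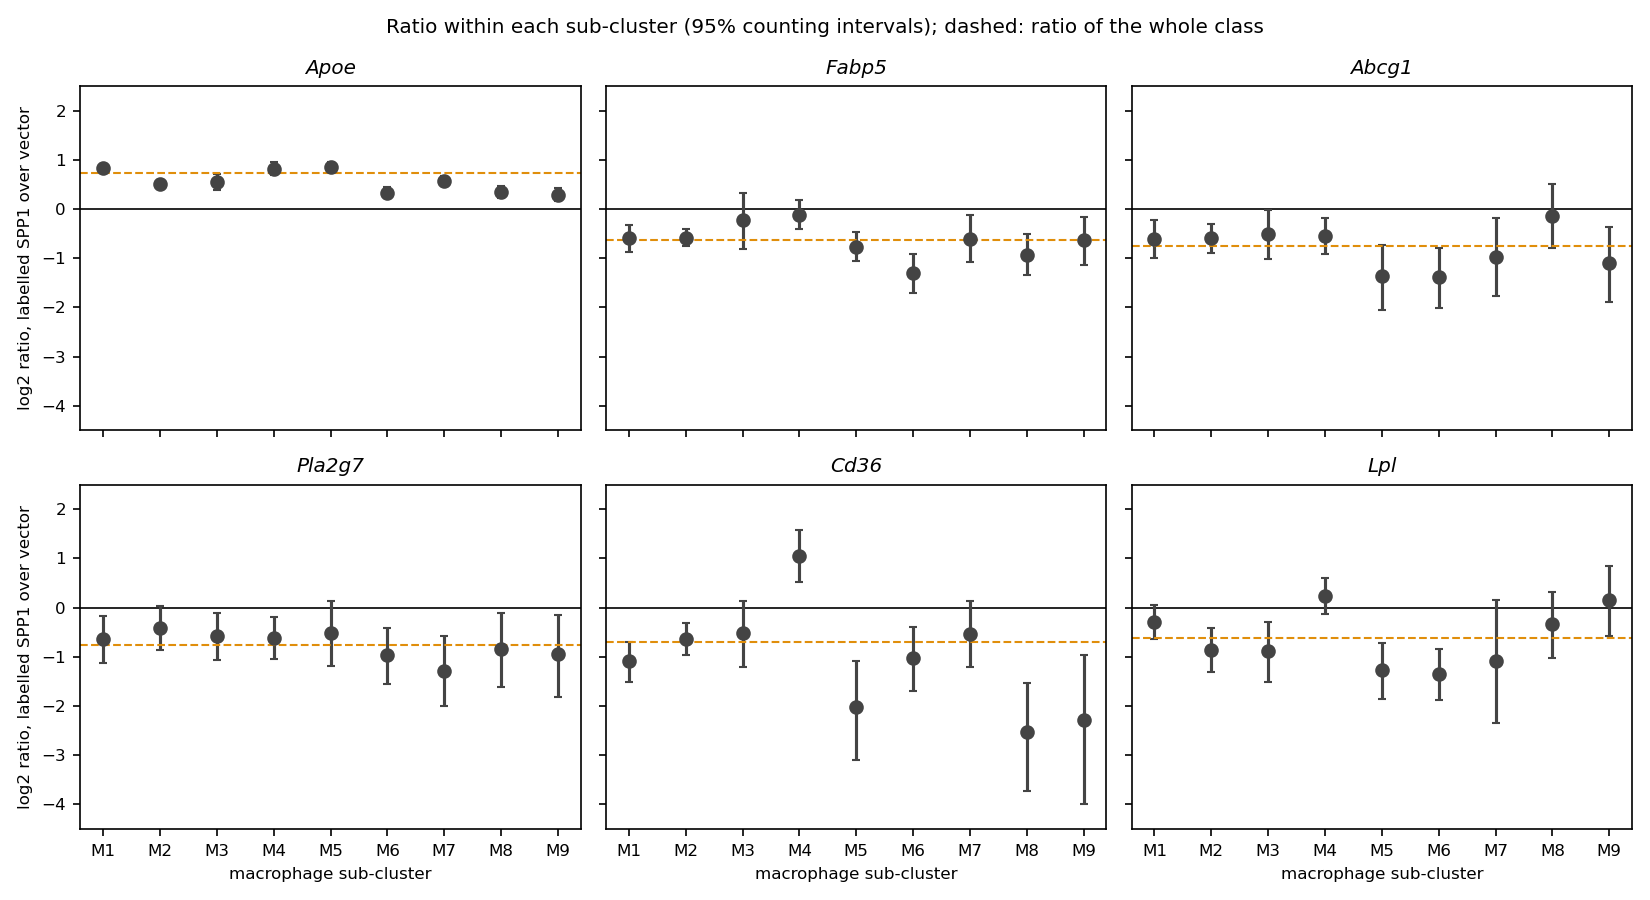
Log2 ratio, library labelled SPP1 over library labelled vector, of 6 genes in macrophage sub-clusters M1 to M9, with 95% counting intervals; the dashed line is the ratio of the whole class. All 9 Apoe points lie above 0 and all points of Fabp5, Abcg1 and Pla2g7 below 0, while Cd36 crosses to 1.05 in M4.

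From cell to cell the genes were uneven. The 10% of macrophage/monocyte-like cells richest in Apoe held 33.3% under the SPP1 label and 37.2% under the vector label of its UMIs, and likewise 32.5% under the SPP1 label and 36.7% under the vector label for Trem2. For Gpnmb the top 10% held 92.5% under the SPP1 label and 94.5% under the vector label, for Cd36 82.7% under the SPP1 label and 77.0% under the vector label, and for Lpl 72.8% under the SPP1 label and 73.8% under the vector label. With cells thinned to 1000 UMIs, 8.94% under the SPP1 label and 12.6% under the vector label of cells had none of the 10 genes, 21.2% under the SPP1 label and 25.8% under the vector label had at least 3, and 0.337% under the SPP1 label and 1.04% under the vector label had at least 6.

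Within the class the genes co-varied only weakly across cells at the thinned depth. Over 593 cells under the SPP1 label and 769 under the vector label, thinned to 1000 UMIs, the Pearson correlation of log counts lay between -0.09 and 0.19 in the library labelled SPP1 and between -0.05 and 0.17 in the library labelled vector over the 45 pairs. The pairs with the highest mean were Apoe with Fabp5 (mean r over the libraries 0.15), Apoe with Trem2 (0.14), Gpnmb with Fabp5 (0.13) and Trem2 with Gpnmb (0.10). No pair reached 0.3 in both libraries. Such values were rare in general: 95 of 1461195 pairs under the SPP1 label and 65 of 1570878 under the vector label, of genes seen in at least 10% of cells, reached 0.3. The median r over all these pairs was -0.0013 under the SPP1 label and -0.0011 under the vector label. Some of the 10 genes, such as Gpnmb and Fabp4, were seen in fewer than 10% of the thinned cells. The cells of a library share its preparation. The median r over the 45 pairs was higher with 2000 UMIs kept per cell than with 1000. At 1000 UMIs it was 0.024 under the SPP1 label and 0.037 under the vector label. At 2000 UMIs it was 0.049 under the SPP1 label and 0.073 under the vector label. Unthinned, it was 0.091 under the SPP1 label and 0.098 under the vector label. Gpnmb with Fabp5 then reached 0.37 under the SPP1 label and 0.31 under the vector label, and Apoe with Trem2 0.28 under both. Fabp4 with Pla2g7 under the SPP1 label went the other way, at 0.06 unthinned and 0.19 thinned to 1000 UMIs.

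Over the 9 sub-clusters some pairs had a like order of levels and others did not. The lower Spearman's rho of the libraries was 0.69 between Apoe and Trem2, 0.73 between Gpnmb and Fabp5, 0.75 between Gpnmb and Cd9, and 0.67 between Fabp5 and Abcg1. The higher rho was -0.07 for Apoe against Abcg1 and -0.07 for Apoe against Lpl. Trem2 and Gpnmb had 0.27 under the SPP1 label and 0.20 under the vector label. Other pairs differed in sign between the libraries, such as Fabp4 with Pla2g7 at 0.13 under the SPP1 label and -0.72 under the vector label and Cd36 with Lpl at -0.35 under the SPP1 label and 0.33 under the vector label. These are descriptions over 9 points of the same libraries.

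**Figure D5:**
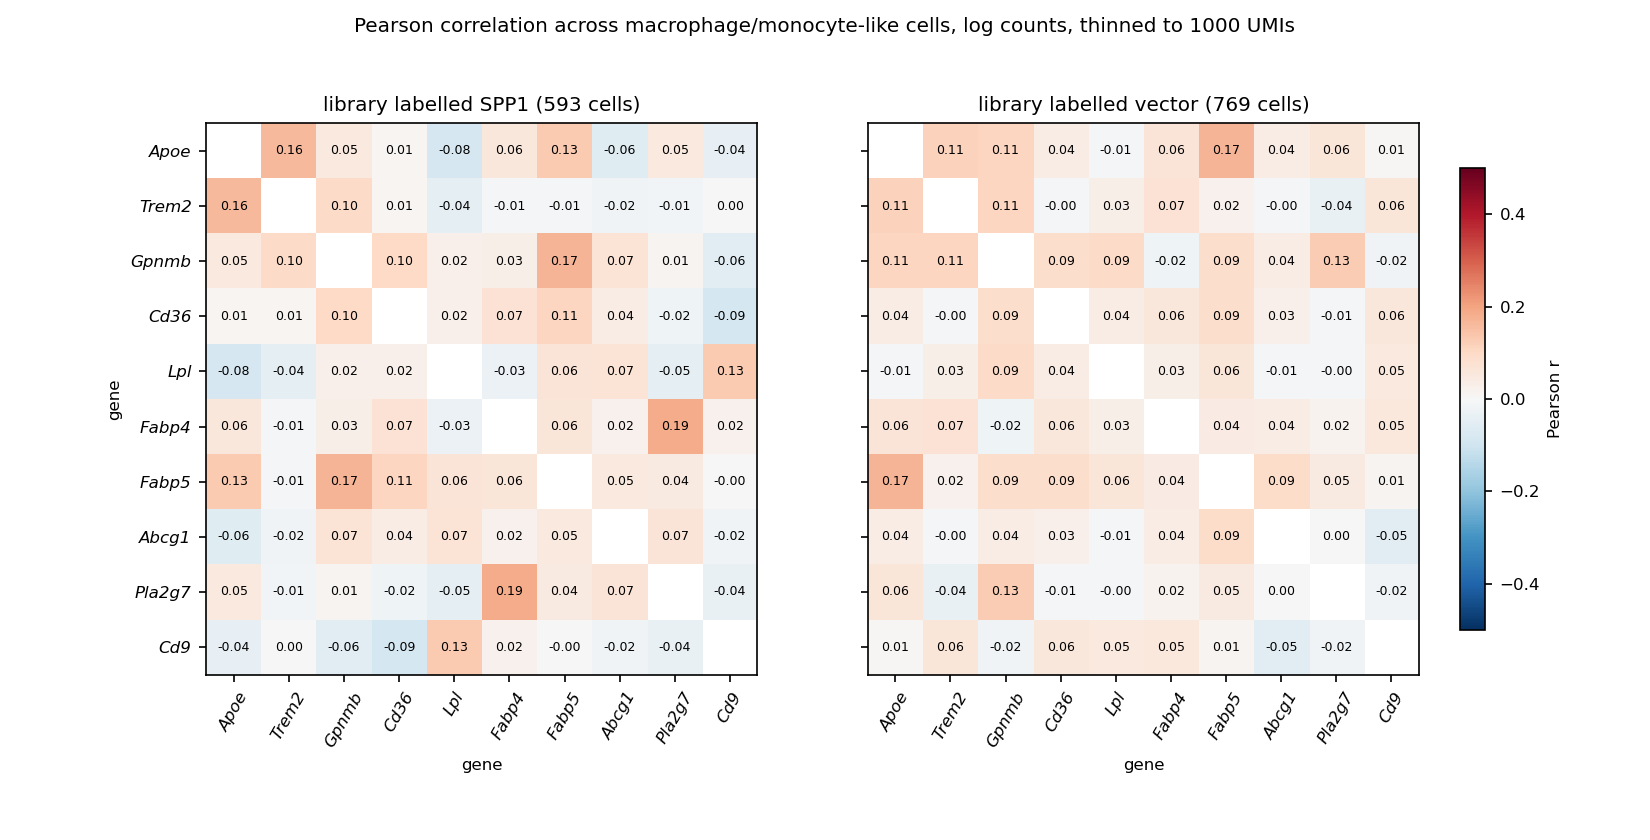
Pearson correlation of log counts between each pair of the 10 genes across macrophage/monocyte-like cells thinned to 1000 UMIs, in the library labelled SPP1 (left) and the library labelled vector (right). All values lie between -0.09 and 0.19, and Apoe with Trem2 or Fabp5 and Gpnmb with Fabp5 are among the redder squares.

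The genes most like each member across cells, by mean r over both libraries, were taken from 1491 genes outside the 10. These had a UMI in at least 10% of thinned cells in both libraries, so the choice itself favoured widely detected genes. Mitochondrial and ribosomal protein genes were left out. Apoe was closest to Ctsb, for cathepsin B, at a mean r of 0.38, then Selenop at 0.35 and the lysozyme gene Lyz2 at 0.35. Trem2 had Lyz2, Ctsb and C1qa at a mean r of 0.10 to 0.12. Fabp5 had Ctsb (0.28), Fth1 and Ctsl, and Fabp4 had Wfdc17 (0.20), Mmp12 and Ctsl. Gpnmb was nearest to Fth1, Lgals3 and B2m, and Abcg1 to Lgals3, Fth1 and Dnajc5.

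Spp1 was the closest gene to Cd9 (mean r 0.20) and the second closest to Lpl (0.14), after Mmp12 (0.14). Cd36 was nearest to Ctsb, Plin2, which coats lipid droplets, and Pf4, at a mean r of 0.11 to 0.13. Pla2g7 had no neighbour above a mean r of 0.11. Spp1 itself had 2653 CPM under the SPP1 label and 2288 CPM under the vector label in macrophage/monocyte-like cells, a log2 ratio of 0.21 (0.18 to 0.25).

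The wider pathways were described from gene lists, of which genes with at least 100 UMIs in the class were measured. Over all 8342 measured genes 2.81% were at least 1.5-fold higher, 1.95% lower, and the median log2 ratio was -0.02. Of 17 genes of fatty acid uptake and storage, 0 were 1.5-fold higher and 3 lower, all of them among the 10 (Cd36, Fabp5 and Lpl), and the median log2 ratio was -0.05. The droplet coat gene Plin2 had 397.5 CPM under the SPP1 label and 326.5 CPM under the vector label, the hypoxia-induced droplet gene Hilpda 215 CPM under the SPP1 label and 177 CPM under the vector label, and Pparg, a nuclear receptor of fatty acid genes, 10.7 CPM under the SPP1 label and 15.7 CPM under the vector label, none of which passed 1.5-fold. Of 14 genes of cholesterol efflux and LXR targets, 1 was higher (Apoe) and 3 lower: Abcg1 and the desaturase genes Scd1 (7.34 CPM under the SPP1 label and 12.5 CPM under the vector label, log2 ratio -0.77) and Scd2 (77.5 CPM under the SPP1 label and 123 CPM under the vector label, -0.67), with a median of -0.04. Abca1, the other main exporter of cholesterol, had 787 CPM under the SPP1 label and 738.5 CPM under the vector label.

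Of 13 genes of cholesterol synthesis, none among the 10, 0 were higher (2.81% of all measured genes) and 3 lower (1.95% of all), among them Idi1 (42.8 CPM under the SPP1 label and 69.8 CPM under the vector label, log2 ratio -0.70) and Hmgcs1 (38.7 CPM under the SPP1 label and 59.7 CPM under the vector label, -0.63). Of the 13, 1 had a ratio above 0, and the median was -0.33, against -0.02 over all measured genes. Of 11 lipoprotein and scavenger receptors, Stab1 was higher (195 CPM under the SPP1 label and 115.6 CPM under the vector label, log2 ratio 0.75), Cd36 was lower, and the median was -0.11.

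Of 21 genes of TREM2 signalling and the lysosome, 0 were higher and 1 lower, against 4.76% of all measured genes past 1.5-fold in either direction; the 1 was the integrin gene Itgax (51.6 CPM under the SPP1 label and 87.4 CPM under the vector label, log2 ratio -0.76), with a median of 0.00. Tyrobp, the adaptor through which TREM2 signals, had 1323 CPM under the SPP1 label and 1063 CPM under the vector label, a log2 ratio of 0.32 (0.27 to 0.36). Of 8 genes of phospholipases and platelet-activating factor, Pla2g7 was the 1 past 1.5-fold, and the median was -0.13. Of 13 tetraspanins, 1 was higher (Tspan4, 23.0 CPM under the SPP1 label and 14.2 CPM under the vector label, log2 ratio 0.70), 0 were lower, and the median was 0.02, against the same 4.76% and a median of -0.02 over all.

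In the compartment 6 of the 10 genes had at least 100 UMIs, and 0 of the 6 passed 1.5-fold, against 5.55% of all 15471 genes measured there, of which 4.03% were higher and 1.52% lower. Pla2g7 had 57.6 CPM under the SPP1 label and 70.6 CPM under the vector label, a log2 ratio of -0.29 (-0.34 to -0.25), and Gpnmb 26.2 CPM under the SPP1 label and 29.8 CPM under the vector label, a log2 ratio of -0.19 (-0.25 to -0.12). Cd9 had 673 CPM under the SPP1 label and 720 CPM under the vector label, a log2 ratio of -0.10, and Fabp5 27.7 CPM under the SPP1 label and 30.4 CPM under the vector label, a log2 ratio of -0.13. Apoe, at 7.98 CPM under the SPP1 label and 6.28 CPM under the vector label, a log2 ratio of 0.35 (0.22 to 0.47), stood beside 7.73 CPM under the SPP1 label and 30.5 CPM under the vector label in T and NK-like cells, where 3 cells held 91.7% of the 24 UMIs of the library labelled vector. In this compartment 3 clusters came almost wholly from 1 library, with 2552 cells under the SPP1 label and 139 under the vector label, and without them the log2 ratio was -0.02 for Gpnmb, -0.10 for Pla2g7, -0.04 for Cd9 and -0.26 for Fabp5.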

How the data were processed

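Single-cell RNA was measured in 1 tumour per group. The deposited values are UMI counts per gene and barcode, not normalized, which was checked on the values; the authors named Cell Ranger 2.1.1 and GRCm39, per the submitters' processing notes. The barcodes are 20 bases long; the chemistry, how cells were called, and whether ambient RNA was subtracted are not stated in any source used here.

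The cell filter asked for 300 genes, 500 UMIs and no more than 15% mitochondrial UMIs (13956 cells passed in the library labelled SPP1, 14243 in the library labelled vector). Predicted doublets, 5.09% under the SPP1 label and 3.88% under the vector label, were removed by Scrublet's method, written anew (expected rate 0.06). Counts were scaled to 10000 per cell, logged, reduced to 30 components of 2000 variable genes, joined to 20 neighbours and clustered by leidenalg 0.10.2 at resolution 1.0, in Python 3.11.15. Clusters were named from marker lists, with at least 3 raised markers. Clusters at 0.25 or more of the compartment's marker level were called mixed, and unnamed clusters under 0.5 of the median UMIs low-UMI; both limits were chosen with the data already seen. Mixed cells (306 under the SPP1 label, 353 under the vector label) and low-UMI cells (1717 under the SPP1 label, 1889 under the vector label) are in no named class. The macrophage sub-cluster left out as mixed (25 cells under the SPP1 label, 17 under the vector label) is in no named class either. Its cells are not in the count of mixed cells. A cluster c14 of macrophage and compartment RNA held 214 of the mixed cells under the SPP1 label and 302 under the vector label.

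UMIs were summed per class and library as CPM with exact Poisson intervals; log2 ratios have exact conditional binomial intervals and shares exact binomial intervals, at 95%. Genes with 100 UMIs over both libraries were measured, 1.5-fold was the size named, and the ratios were tested on simulated data. PCR and the loss of molecules are not in the intervals. Named beyond the 10 genes were, per list, the 2 highest and 2 lowest past 1.5-fold, and the 3 nearest genes by correlation; Hmgcs1 and the list genes given without passing 1.5-fold were chosen after their values were seen. Some list genes are not reported here. The members and lists were chosen with earlier results of these data known. Alternatives were depth, weights, filters, resolution, scaling and cells left out.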

Additional observations from a re-analysis of the deposited data

Results flagged for a closer look

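In 4 cases a gene had opposite directions in 2 cell classes of the same libraries, with both counting intervals clear of 0; the difference between the classes was not tested. Apoe had a log2 ratio of -1.98 (-3.73 to -0.56) in T and NK-like cells, from 5 UMIs in the library labelled SPP1 and 24 in the library labelled vector, against 0.74 in macrophage/monocyte-like cells; 3 cells held 60% under the SPP1 label and 91.7% under the vector label of those UMIs. Fabp5 had a log2 ratio of 1.29 (0.54 to 2.095) in endothelial-like cells, from 61 UMIs under the SPP1 label and 20 UMIs under the vector label, against -0.62 in macrophage/monocyte-like cells; 3 cells held 59.0% under the SPP1 label and 65.0% under the vector label of those UMIs. Cd9 had a log2 ratio of 0.72 (0.39 to 1.05) in fibroblast-like cells, from 191 UMIs under the SPP1 label and 127 UMIs under the vector label, against -0.18 in macrophage/monocyte-like cells. Gpnmb had a log2 ratio of -0.19 (-0.25 to -0.12) in the compartment, from 3704 UMIs under the SPP1 label and 4253 UMIs under the vector label, against 0.35 in macrophage/monocyte-like cells. Without the 3 clusters of 1 library the compartment ratio of Gpnmb was -0.02. In macrophage/monocyte-like cells 3 cells held 26.2% under the SPP1 label and 14.5% under the vector label of the Gpnmb UMIs; leaving those cells out gave a ratio of 0.14, and a mean over cells gave 0.11.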

How the results depend on the processing

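In macrophage/monocyte-like cells each ratio was recomputed under 13 alternatives, of which 4 were added after the data had been seen (mixed cells added, shared barcodes left out, M1 left out, and M3 and M7 left out). The range was 0.56 to 0.79 for Apoe, 0.18 to 0.33 for Trem2, 0.11 to 0.62 for Gpnmb, -0.92 to -0.60 for Cd36, -0.93 to -0.52 for Lpl, -0.68 to -0.50 for Fabp5, -0.82 to -0.60 for Abcg1, -0.82 to -0.67 for Pla2g7 and -0.23 to -0.07 for Cd9; of the 10 genes Fabp4 alone changed sign, from -0.30 to 0.38. The count of genes at least 1.5-fold higher was 1, but 2 with cells thinned to 1000 UMIs (Apoe and Gpnmb), 0 with equal weight per sub-cluster and 0 without M3 and M7. The count of genes at least 1.5-fold lower was 4 or 5 under every alternative run, and 4 came from Fabp5 (-0.50 in thinned cells, -0.57 as a mean over cells) or Lpl (-0.57 with equal weights, -0.52 without M3 and M7) passing under 1.5-fold. Of pairs with r of at least 0.3 in both libraries there was 1 in unthinned counts scaled per cell (Gpnmb with Fabp5). There were 0 in thinned ones, and the cause was not tested. Without a UMI minimum the median of lipoprotein and scavenger receptors was -0.24 in place of -0.11, and the other 6 lists moved less. Sub-clusters of low UMI content could not be left out, since none lay under 0.5 of the class median. M5 was the nearest to that limit, with a median of 4814 UMIs, 0.58 of the class median. No paired analysis was possible because each group holds 1 library. Depth limits the classes of few cells: endothelial-like cells had 160503 UMIs under the SPP1 label and 128482 UMIs under the vector label in all.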

Other observations

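The low-UMI cells without a name are in no named class, but they are part of the totals behind the shares of all UMIs. Among them Apoe stood at 142 CPM (783 UMIs) in the library labelled SPP1 and 58.6 CPM (272 UMIs) in the library labelled vector. That is a log2 ratio of 1.28 (1.08 to 1.48). Abcg1 stood at 1.82 CPM under the SPP1 label and 6.90 CPM under the vector label, from 10 UMIs under the SPP1 label and 32 UMIs under the vector label. In cluster c14, whose cells mix macrophage and compartment RNA, Apoe was at 1435 CPM under the SPP1 label and 1161 CPM under the vector label, Fabp5 at 94.3 CPM under the SPP1 label and 229 CPM under the vector label, a log2 ratio of -1.28 (-1.68 to -0.89), and Pla2g7 at 57.1 CPM under the SPP1 label and 112.5 CPM under the vector label, a log2 ratio of -0.98 (-1.51 to -0.47). The pericyte or smooth muscle-like cells, 7 under the SPP1 label and 4 under the vector label, held Fabp4 at 987 CPM under the SPP1 label and 7627 CPM under the vector label, from 42 UMIs under the SPP1 label and 137 UMIs under the vector label.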
